A study of Mus musculus with 9 samples.

Results

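The genes described here are the axon guidance ligands and receptors of the mouse brain, that is the semaphorins, ephrins, netrins and Slits with their plexin, neuropilin, Eph, Dcc, Unc5 and Robo receptors. They were chosen by gene symbol, with earlier results of these data known. Protein-coding genes of the count table whose names belong to these families were taken, which gave 68 of 49315 genes in the table. By family these were 20 semaphorins, 9 plexins, 2 neuropilins, 8 ephrins, 14 Eph receptors, 3 netrins (Ntn1, Ntn4 and Ntn5), 5 netrin receptors, 3 Slits and 4 Robos, and Ntn3 was not analysed here. RNA was extracted from single whole brains of wild-type C57BL/6J mice, 5 young (3 months) and 4 old (33 months), with no treatment or transgene in either group, and all animals were male. PolyA-selected RNA was sequenced, and old replicate 2 was not analysed here, so the old mice are replicates 1, 3, 4 and 5. Each library held between 14229259 and 21150439 counts on genes. Markers of neurons, astrocytes, oligodendrocytes and endothelial cells were counted in every library. Levels are given as CPM, a gene's counts relative to the size of its library, which edgeR's TMM method adjusts for composition, errors of log2 fold changes are standard errors (SE), and their 95% intervals are not adjusted for the number of genes. In bulk tissue, fewer cells of a type and less RNA per cell cannot be told apart. Young replicate 4 stood apart in microglial genes, with a summed level of 8 reactive microglia markers of 73.1 CPM. The rest of the young mice lay at 23.2 to 26.5 CPM and the old mice at 63.2 to 83.2 CPM. Without this mouse, 6 guidance genes were called higher and 16 lower, beside the 6 and 17 described in what follows.

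Guidance molecules steer growing axons by attraction or repulsion at the growth cone. Semaphorins act through plexins, with neuropilins as co-receptors for most secreted class 3 members, ephrins through the Eph receptor tyrosine kinases, Slits through Robos, and netrins through Dcc and the Unc5 receptors. In the adult brain the same genes are known from synapses, dendritic spines, myelinating glia and blood vessels, so that their RNA comes from several cell types.

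Of the 68 genes, 67 passed the filter on low counts and were tested between the ages together with all other genes, 18492 in all. Efna4, which encodes ephrin A4, was the exception, with at most 9 counts in a library. Taking a gene as called where the quasi-likelihood test of edgeR put its adjusted p below 0.05, 23 of the 67 genes (34.3%) differed between the ages, against a background of 11% of all genes tested. Of these, 17 were lower in old brain (25.4%, background 4.89%) and 6 were higher (8.96%, background 6.09%). The median log2 fold change over the 67 genes was -0.09, against -9.2e-05 over all genes tested, and 45 of the 67 (67.2%) lay below 0, against 50% of all genes. The changes were small. The falls ran from 9.47% to 39.8% and the rises from 14.9% to 40.5%, and 1 gene, Robo3, passed an absolute log2 fold change of 0.58, a limit that 2.5% of all genes tested passed together with the adjusted p. For falls alone this background was 0.373%. The mice of one age lay close together, with a median coefficient of variation of 6.51% in young and 7.35% in old mice over the 67 genes. The values of the ages did not overlap for 18 of the 67 genes (26.9%, background 12.6%), of which 17 were among the 23 that differed and 1, Sema4c, was not. Of the 33 ligands 11 were called (33.3%), 4 higher and 7 lower, and of the 34 receptors 12 (35.3%), 2 higher and 10 lower. Where libraries were compared on the log2(TPM + 1) scale, the median of all genes moved by -0.14 and Robo3 alone was called.

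**Figure D1:**
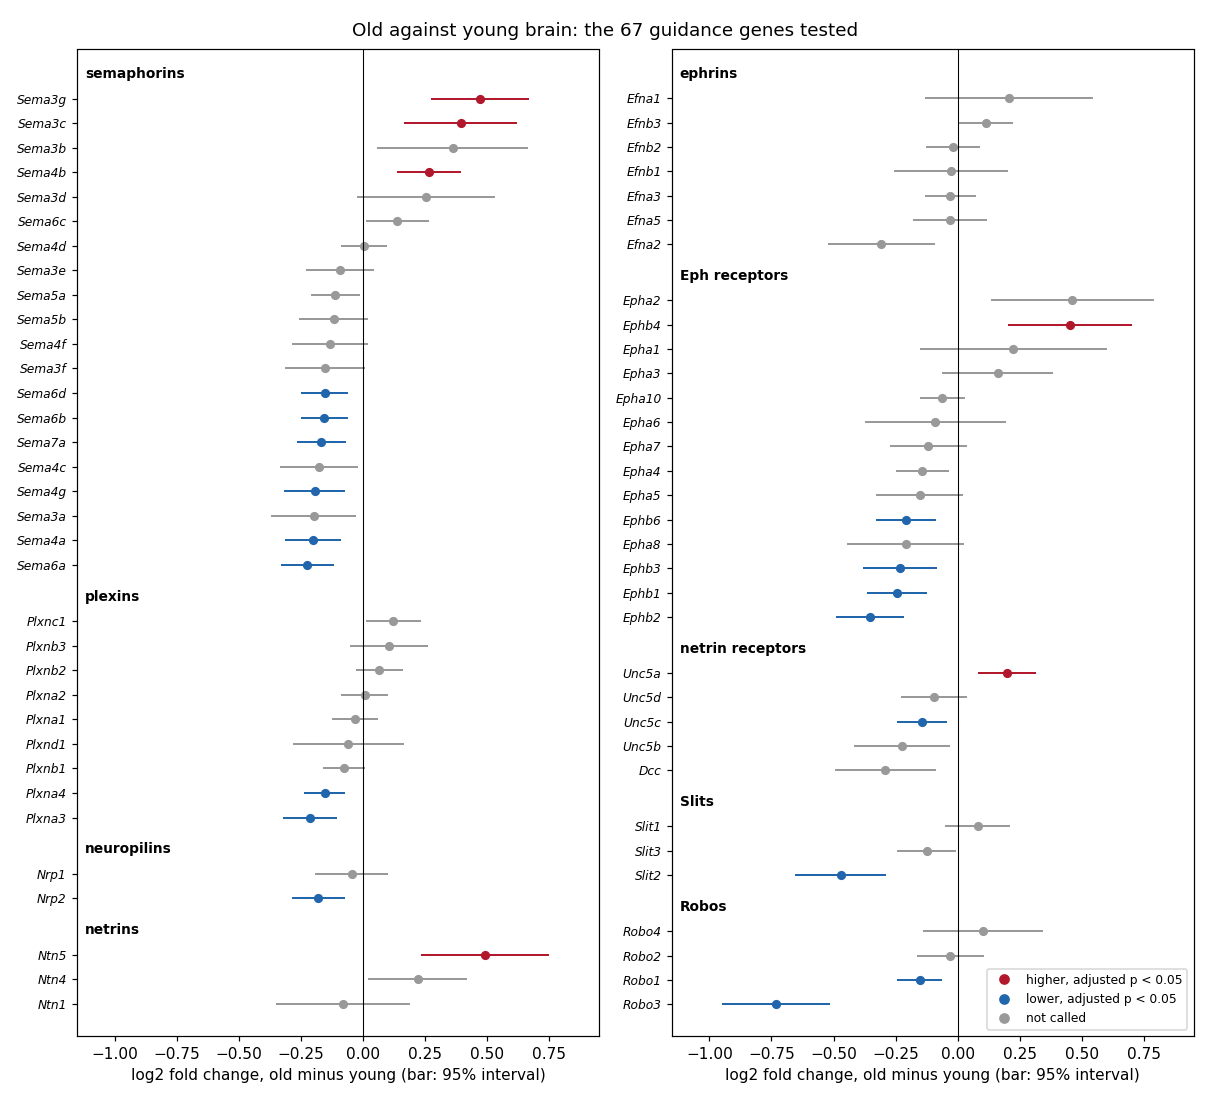
Log2 fold change of old against young brain (horizontal axis) for the 67 tested guidance genes, grouped by family, with 95% confidence intervals as bars, genes called higher in red, lower in blue and not called in grey. Most points lie left of 0, Robo3 is farthest left at -0.73, and Ntn5 is farthest right at 0.49.

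The Slit and Robo gene families held both of the largest falls. Robo3, a divergent receptor known for letting commissural axons cross the midline (chromosome 9, 37415669 to 37433246 in GRCm38), was at 23.4, 19.0, 21.4, 27.5 and 20.1 CPM in the young mice and 13.8, 14.6, 13.3 and 12.2 CPM in the old mice (replicates in order, also for the genes that follow). Every old mouse lay below every young mouse. Robo3 fell by 0.73 on the log2 scale, a loss of 39.8% (SE 0.10, 95% interval -0.95 to -0.52, edgeR adjusted p = 0.00032). Slit2, a secreted ligand of Robo1 and Robo2 (chromosome 5, 47983138 to 48307733 in GRCm38), was at 39.7, 43.9, 41.9, 37.5 and 41.8 CPM in the young mice and 24.9, 35.0, 31.3 and 27.2 CPM in the old mice. Here too the ages did not overlap, and old replicate 1 was the lowest. The log2 fold change was -0.47 (SE 0.083, 95% interval -0.65 to -0.29, edgeR adjusted p = 0.0028). Robo1, which was the steadiest of the 23 genes among young mice, ran from 61.4 to 63.8 CPM in the young and from 53.8 to 58.3 CPM in the old mice. It fell by 0.15 on the log2 scale (SE 0.041, edgeR adjusted p = 0.021), and its adjusted p was 0.069 without old replicate 4. The other 4 members were not called. Their log2 fold changes were 0.08 for Slit1 (95% interval -0.05 to 0.21), -0.12 for Slit3 (-0.24 to -0.01), -0.03 for Robo2 (-0.16 to 0.10) and 0.10 for the endothelial receptor Robo4 (-0.14 to 0.34), with adjusted p from 0.16 to 0.81 (edgeR).

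The promoters of the 3 genes with the largest falls and of the 2 with the largest rises among the called genes are shown, as the genes at both ends of the range of change. They were taken from RefSeq on the GRCm38.p6 build, written 5′ to 3′ on the strand of the gene, and reach from 250 bases before the RefSeq start to the last base before any annotated exon of the gene. Capitals mark the GC box GGGCGG or its reverse complement CCGCCC, a short element bound by Sp family factors.
Robo3, chr9:37433247-37433425, minus strand: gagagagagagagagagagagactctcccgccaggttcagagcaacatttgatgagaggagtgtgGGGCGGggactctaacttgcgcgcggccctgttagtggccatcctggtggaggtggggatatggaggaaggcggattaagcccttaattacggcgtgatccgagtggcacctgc
Slit2, chr5:47982905-47983137, plus strand: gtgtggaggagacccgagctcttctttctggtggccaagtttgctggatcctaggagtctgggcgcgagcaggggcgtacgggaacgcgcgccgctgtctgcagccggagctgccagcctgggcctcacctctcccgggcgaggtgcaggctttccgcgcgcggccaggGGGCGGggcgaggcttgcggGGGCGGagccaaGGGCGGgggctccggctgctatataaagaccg
Ephb2, chr4:136836013-136836262, minus strand: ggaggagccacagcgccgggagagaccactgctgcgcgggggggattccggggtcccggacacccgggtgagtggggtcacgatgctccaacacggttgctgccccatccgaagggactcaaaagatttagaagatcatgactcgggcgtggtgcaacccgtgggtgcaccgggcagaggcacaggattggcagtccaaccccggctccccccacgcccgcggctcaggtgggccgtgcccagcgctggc
Ntn5, chr7:45683772-45684021, plus strand: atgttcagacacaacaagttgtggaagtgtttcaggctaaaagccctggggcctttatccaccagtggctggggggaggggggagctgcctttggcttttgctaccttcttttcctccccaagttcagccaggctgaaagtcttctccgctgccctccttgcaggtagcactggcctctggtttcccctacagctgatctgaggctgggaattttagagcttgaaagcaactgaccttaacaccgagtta
Sema3g, chr14:31217623-31217859, plus strand: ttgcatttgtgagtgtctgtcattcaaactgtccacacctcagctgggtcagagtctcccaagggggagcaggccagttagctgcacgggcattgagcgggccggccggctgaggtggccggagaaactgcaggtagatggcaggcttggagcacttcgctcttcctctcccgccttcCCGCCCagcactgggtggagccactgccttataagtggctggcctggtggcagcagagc
The GC box stands 3 times in the Slit2 window, once each in those of Robo3 and Sema3g, and not in those of Ephb2 and Ntn5. RefSeq promoters were matched for 58 of the 68 genes, with 74 windows. For the shares that follow, windows were the full 250 bases, not cut at annotated exons as in the sequences shown. A GC box was present in 70.3% of these windows, 53.6% of the windows of all genes tested and 32.7% of all promoter windows. Among the genes called lower it was present in 14 of 20 windows (70%), among those called higher in 6 of 7 (85.7%) and among those not called in 32 of 47 (68.1%). These counts describe the letters in the windows and were not tested between the groups.

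Among the Eph receptors, all 5 EphB members differed between the ages, while none of the 9 EphA members was called. The background was 11% of all genes tested. The median SE was 0.064 over the EphB and 0.10 over the EphA genes. With each mouse left out in turn, Ephb1 and Ephb2 kept their call in all 9 fits, Ephb4 in 7, Ephb6 in 5 and Ephb3 in 3. The difference between these classes was not tested. Ephb2, a receptor kinase found at excitatory synapses (chromosome 4, 136647539 to 136835988 in GRCm38), was at 36.2, 30.2, 33.1, 34.9 and 35.9 CPM in the young mice and 26.3, 26.5, 29.1 and 24.7 CPM in the old mice. The highest old mouse was below the lowest young mouse. Its log2 fold change was -0.35 (SE 0.064, edgeR adjusted p = 0.0019). Ephb1 (chromosome 9, 101922128 to 102354693 in GRCm38), which shares ephrin B ligands with it, was at 61.5, 61.9, 65.7, 62.4 and 65.0 CPM in the young mice and 51.2, 60.9, 53.7 and 48.4 CPM in the old mice. The ages were apart by less than 1 CPM, with old replicate 3 next to the young mice, and the log2 fold change was -0.24 (SE 0.055, edgeR adjusted p = 0.0089). Ephb3 ran from 19.6 to 21.3 CPM in the young and from 15.3 to 18.8 CPM in the old mice (log2 fold change -0.23, SE 0.068, edgeR adjusted p = 0.035), again without overlap. Ephb6, whose kinase domain is inactive, ran from 80.0 to 92.6 CPM in the young and from 69.9 to 80.6 CPM in the old mice (log2 fold change -0.21, SE 0.055, edgeR adjusted p = 0.022), so that its ages overlapped. In contrast, Ephb4, a receptor known from the endothelium of veins (chromosome 5, 137350109 to 137378669 in GRCm38), was at 7.37, 8.02, 6.32, 6.67 and 7.60 CPM in the young mice and 8.87, 8.04, 11.9 and 10.4 CPM in the old mice. Every old mouse was above every young mouse, with young replicate 2 and old replicate 3 almost level. Ephb4 rose by 0.45 on the log2 scale (SE 0.12, edgeR adjusted p = 0.018). Its exons overlap those of Zan on the other strand, a gene that averaged 1.66 CPM at the young and 1.70 CPM at the old age (edgeR adjusted p = 0.95). Ephb1 likewise overlaps Gm26846, at 1.85 and 1.82 CPM.

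Of the EphA receptors, Epha2 had the largest log2 fold change at 0.46 (95% interval 0.14 to 0.79, edgeR adjusted p = 0.062) and ran from 2.46 to 3.09 CPM in the young and from 3.03 to 4.52 CPM in the old mice. It was the tested EphA receptor with the lowest level per length. Epha4, the EphA receptor with the highest level and one that binds both A and B ephrins, ran from 149 to 168 CPM in the young and from 132 to 154 CPM in the old mice (log2 fold change -0.14, SE 0.048, edgeR adjusted p = 0.067). Of the 9 EphA genes, 2 had an unadjusted p under 0.05 (edgeR), a limit that 4712 of all 18492 genes tested passed. None of the 7 tested ephrins was called, and at the background of 11% of all genes tested few calls would be looked for among 7 genes. Efnb3, which accounted for 50.5% of the summed level of the ephrins per length, ran from 114 to 137 CPM in the young and from 130.2 to 144 CPM in the old mice (log2 fold change 0.11, 95% interval 0.01 to 0.22, edgeR adjusted p = 0.16). Efnb2, the ephrin of arterial endothelium and a ligand of Ephb4, ran from 48.6 to 55.6 CPM in the young and from 47.5 to 53.7 CPM in the old mice (log2 fold change -0.02, 95% interval -0.12 to 0.08). Efna2 had the largest change of the ephrins (log2 fold change -0.31, SE 0.10, edgeR adjusted p = 0.059). Efna1, the tested ephrin of the lowest level, was at 3.09 ± 0.601 CPM (SD, 5 young mice) and 3.57 ± 0.259 CPM (SD, 4 old mice). The difference between the ephrins and their receptors was not tested.

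**Figure D2:**
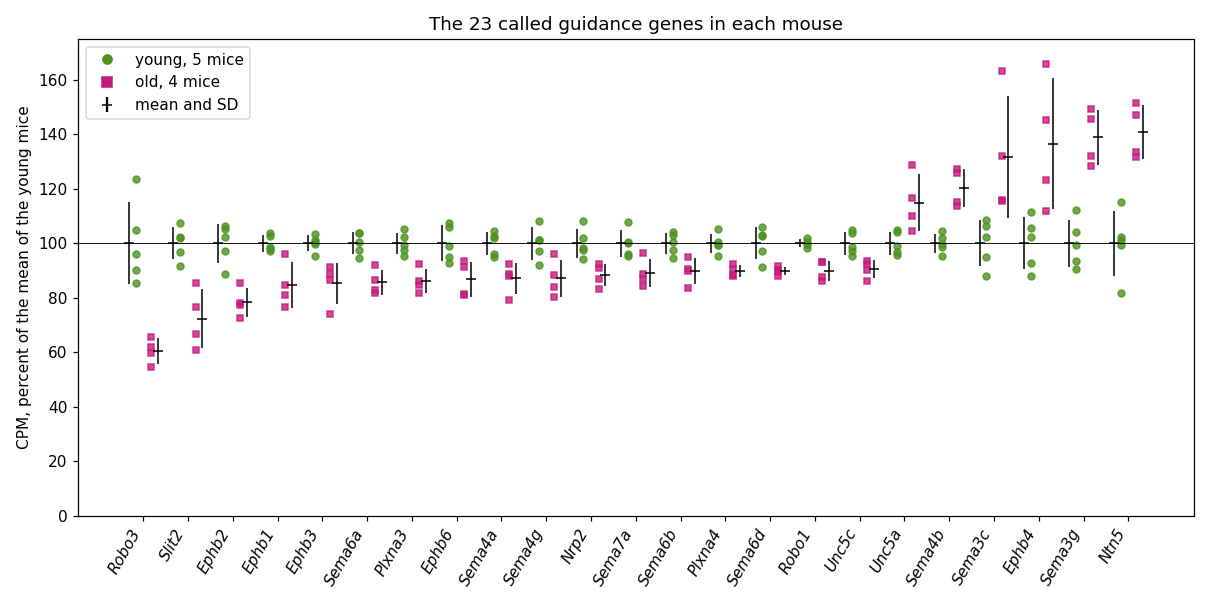
Level of each of the 23 called guidance genes in each mouse, as CPM in percent of the mean of the young mice (vertical axis), with 5 young mice as circles, 4 old mice as squares, and mean and SD as black bars. For Robo3, Slit2 and Ephb2 the old squares all lie under the young circles, and for Ntn5, Sema3g and Ephb4 they all lie over them.

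Of the 20 semaphorins, 3 were higher and 6 lower in old brain. Both class 3 genes that passed the test were higher. Sema3g, a secreted semaphorin known from arterial endothelium (chromosome 14, 31217860 to 31230352 in GRCm38), was at 7.06, 7.75, 8.73, 8.12 and 7.29 CPM in the young mice and 9.99, 11.3, 10.3 and 11.6 CPM in the old mice. The old mice were all above the young ones. Its log2 fold change was 0.47 (SE 0.092, edgeR adjusted p = 0.0033). Sema3c, also secreted (chromosome 5, 17574281 to 17730268 in GRCm38), was at 21.7, 26.7, 23.4, 26.2 and 25.1 CPM in the young mice and 28.5, 32.5, 28.4 and 40.2 CPM in the old mice. The ages did not overlap, and old replicate 5 was the highest at 40.2 CPM. Its log2 fold change was 0.39 (SE 0.10, edgeR adjusted p = 0.028). Old replicate 5 also had the highest olfactory bulb markers, and with these as a covariate the log2 fold change of Sema3c was 0.24 (edgeR adjusted p = 0.064). The other 5 class 3 genes were not called, with log2 fold changes from -0.20 for Sema3a to 0.36 for Sema3b (edgeR adjusted p = 0.12 for each).

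The class 4 to 7 semaphorins are bound to the membrane. In class 4, Sema4b was higher in old brain and Sema4a and Sema4g were lower. Sema4b was at 20.2, 20.8, 18.9, 19.6 and 19.8 CPM in the young mice and 25.2, 22.9, 22.5 and 24.9 CPM in the old mice, with no overlap (log2 fold change 0.27, SE 0.059, edgeR adjusted p = 0.0075). Sema4a ran from 49.0 to 53.9 CPM in the young and from 40.8 to 47.7 CPM in the old mice, also with no overlap (log2 fold change -0.20, SE 0.051, edgeR adjusted p = 0.018). Sema4g ran from 52.3 to 61.6 CPM in the young and from 45.7 to 54.7 CPM in the old mice and overlapped (log2 fold change -0.19, SE 0.057, edgeR adjusted p = 0.034). Sema4d, a ligand of plexin B1 that oligodendrocytes make, had a log2 fold change of 0.01 (95% interval -0.08 to 0.09). In class 6, which binds plexins of class A directly, 3 of 4 genes were lower. Sema6a, known from oligodendrocytes among other cells, was at 53.4, 50.1, 53.5, 48.7 and 51.6 CPM in the young mice and 42.6, 44.4, 42.0 and 47.2 CPM in the old mice. Each old mouse was below each young mouse (log2 fold change -0.22, SE 0.049, edgeR adjusted p = 0.0067). Sema6b (log2 fold change -0.15, SE 0.043, edgeR adjusted p = 0.025) ran from 126 to 138 CPM in the young and from 111 to 126 CPM in the old mice, and Sema6d (log2 fold change -0.15, SE 0.043, edgeR adjusted p = 0.027) ran from 122 to 142 CPM in the young and from 117 to 122 CPM in the old mice, each with overlap. Sema7a, which is held on the membrane by a lipid anchor and binds plexin C1 and integrins (chromosome 9, 57940112 to 57962865 in GRCm38), was at 199, 190.2, 188, 213 and 198 CPM in the young mice and 176, 172, 191 and 167 CPM in the old mice. Old replicate 4 lay within the young mice, and the log2 fold change was -0.17 (SE 0.045, edgeR adjusted p = 0.024). With the olfactory bulb markers as a covariate it was -0.11 (edgeR adjusted p = 0.13). Its receptor gene Plxnc1 was not called (log2 fold change 0.12, 95% interval 0.01 to 0.23). The 2 class 5 genes, Sema5a and Sema5b, were not called either.

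Of the 9 plexins, 2 of class A were lower and the others were not called. Plxna3, which pairs with neuropilin 2 in the response to Sema3f, was at 46.2, 42.9, 44.9, 43.6 and 41.9 CPM in the young mice and 40.5, 37.9, 35.8 and 37.1 CPM in the old mice. The ages did not overlap (log2 fold change -0.21, SE 0.050, edgeR adjusted p = 0.0099). Plxna4, a receptor with neuropilin 1 for Sema3a and on its own for class 6 semaphorins, was at 154, 146, 152, 161 and 152 CPM in the young mice and 139, 142, 135 and 135 CPM in the old mice. These did not overlap either (log2 fold change -0.15, SE 0.037, edgeR adjusted p = 0.012). Plxna1, the plexin of the highest CPM per kb, had a log2 fold change of -0.03 (95% interval -0.12 to 0.06) and Plxna2 one of 0.01 (-0.08 to 0.10). Nrp2 ran from 53.5 to 61.5 CPM in the young and from 47.3 to 52.5 CPM in the old mice (log2 fold change -0.18, SE 0.049, edgeR adjusted p = 0.025), whereas Nrp1, also a co-receptor for vascular endothelial growth factor, had a log2 fold change of -0.04 (95% interval -0.19 to 0.10, edgeR adjusted p = 0.73). Among the ligands named with these receptors, Sema3a (log2 fold change -0.20, 95% interval -0.37 to -0.03) and Sema3f (log2 fold change -0.15, 95% interval -0.31 to 0.00) were not called.

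Netrins and their receptors moved in both directions. Ntn5, a short netrin known from adult neurogenic regions (chromosome 7, 45684022 to 45694556 in GRCm38), showed the largest rise of the 67 genes. It was at 4.29, 4.20, 4.33, 4.88 and 3.46 CPM in the young mice and 6.21, 5.64, 6.40 and 5.58 CPM in the old mice. The ages did not overlap, and the log2 fold change was 0.49 (SE 0.12, 95% interval 0.24 to 0.74, edgeR adjusted p = 0.014). Its exons overlap those of Sec1 on the other strand, which averaged 1.53 CPM at the young and 1.99 CPM at the old age (log2 fold change 0.36, edgeR adjusted p = 0.32). Ntn1, the netrin of the highest level and the classical attractant for Dcc, was at 33.3 ± 5.45 CPM (SD, 5 young mice) and 31.3 ± 3.47 CPM (SD, 4 old mice), with a log2 fold change of -0.08 (edgeR, adjusted p = 0.73). Ntn4, a netrin of basement membranes, had one of 0.22 (edgeR adjusted p = 0.14). Unc5a, a receptor for repulsion by netrin, was at 87.3, 80.7, 82.5, 86.7 and 79.7 CPM in the young mice and 107, 97.1, 91.9 and 87.0 CPM in the old mice. Old replicate 5 lay within the upper young mice. The log2 fold change was 0.20 (SE 0.053, edgeR adjusted p = 0.022). Hk3 overlaps it on the other strand, at 1.71 and 2.17 CPM. Unc5c, of the same family, ran from 54.5 to 60.1 CPM in the young and from 49.3 to 53.6 CPM in the old mice and fell by 0.14 on the log2 scale (SE 0.045, edgeR adjusted p = 0.049). Unc5c was the called gene nearest to the threshold, and leaving out a mouse put its adjusted p over 0.05 in 8 of 9 fits. Dcc, the netrin receptor of the lowest level per length, was at 15.7 ± 1.85 CPM (SD, 5 young mice) and 12.9 ± 1.37 CPM (SD, 4 old mice) and was not called (log2 fold change -0.29, SE 0.094, edgeR adjusted p = 0.055). Unc5b and Unc5d were not called either (log2 fold changes -0.22 and -0.096, edgeR adjusted p = 0.13 and 0.35). Thus 4 of the 5 netrin receptors lay below 0, against 50% of all genes tested, and Unc5a alone lay above it.

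Levels were compared between genes only per kilobase of exon, from the GENCODE M21 gene models. On this scale the 68 genes ran from 0.20 CPM per kb for Efna4 to 57.1 CPM per kb for Sema7a, with a median of 5.20. After Sema7a the highest were Efnb3 at 41.6, Sema6b at 31.9, Ephb6 at 21.5 and Unc5a at 21.3 CPM per kb, and 15 genes reached 10 CPM per kb. Of these 5 genes, 3 were among those lower in old brain and Unc5a among those higher. Robo3 and Slit2, which fell most, were at 2.68 and 1.41 CPM per kb. In each family the lowest and highest gene were Sema3d (1.05) and Sema7a among semaphorins, Plxna3 (5.23) and Plxna1 (14.2) among plexins, Nrp1 (3.29) and Nrp2 (4.55), Efna4 and Efnb3 among ephrins, and Epha2 (0.68) and Ephb6 among Eph receptors. The same pairs were Ntn5 (2.26) and Ntn1 (5.16), Dcc (1.10) and Unc5a, Slit2 and Slit1 (14.4), and Robo4 (1.48) and Robo2 (5.69), all in CPM per kb. The summed level per length of the semaphorins was 183 ± 2.20 CPM per kb (SD, 5 young mice) and 170 ± 1.34 CPM per kb (SD, 4 old mice), 32.2% of it from Sema7a. That of the Eph receptors was 91.0 ± 2.45 and 82.3 ± 3.64, and that of the Robos 14.2 ± 0.71 and 12.5 ± 0.68. For the ephrins it was 81.3 ± 3.49 and 83.4 ± 1.88, and for the Slits, 65.4% of which was Slit1, 22.2 ± 0.84 and 22.0 ± 1.71. These sums were not tested. In the TPM values, whose gene lengths are not given, 5 genes were higher by 1.5 times or more relative to the rest, Robo1 by the most (2.18 times). On that scale the highest Robo was Robo1 (19.7 TPM) and not Robo2 (14.5 TPM), and the highest plexin was Plxnb2 (36.4 TPM) and not Plxna1 (35.5 TPM).

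**Figure D3:**
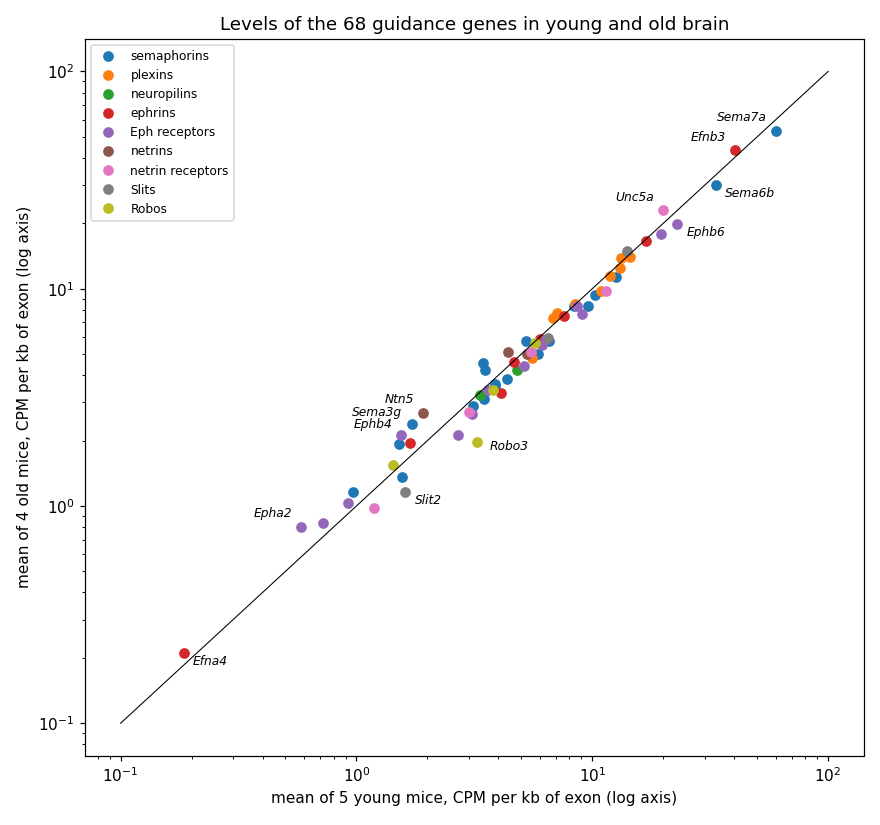
Mean level in 4 old mice (vertical axis) against the mean in 5 young mice (horizontal axis) for the 68 guidance genes, both in CPM per kb of exon on log axes, coloured by family, with a line of equal levels. All points lie near the line over a range from Efna4 at 0.20 to Sema7a at 57.1 CPM per kb, with Robo3 and Slit2 visibly below it and Ntn5 and Sema3g above it.

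Other genes of the pathway were read from the same test. Of 36 further guidance genes, among them repulsive guidance molecules, netrin-G proteins, contactins and cell adhesion molecules of the L1 family, 10 were called (27.8%, background 11%), 9 lower and 1 higher in old brain. The fall of lowest p was that of Chl1, a neural adhesion molecule of the L1 family, from 178.9 ± 6.39 CPM (SD, 5 young mice) to 144.7 ± 5.79 CPM (SD, 4 old mice), or -0.31 on the log2 scale (SE 0.039, edgeR adjusted p = 0.00011). It was followed by L1cam (-0.19, edgeR adjusted p = 0.0042), the contactin gene Cntn1 (-0.16, edgeR adjusted p = 0.0059), the netrin-G1 gene Ntng1 (-0.20, edgeR adjusted p = 0.015), Nrcam (-0.17, edgeR adjusted p = 0.015) and Flrt2 (-0.24, edgeR adjusted p = 0.016). Sdc3, Omg and Lrrc4c were also lower, and Flt1, a receptor for vascular endothelial growth factor that is in the endothelial marker list too, was higher. Of 61 genes of signalling below the receptors, 13 were called (21.3%, background 11%), 9 lower and 4 higher. Dpysl3, a collapsin response mediator of semaphorin signalling, fell from 64.2 to 48.7 CPM (log2 fold change -0.40, edgeR adjusted p = 0.00043) and Rnd1, a small GTPase that binds plexins, by 0.32 on the log2 scale (edgeR adjusted p = 0.0032). Arhgap39, a GTPase activator that binds Robo receptors, rose by 0.23 on the log2 scale (edgeR adjusted p = 0.00085). The falls of Arhgap35 (-0.14), Limk1 (-0.30) and Pak3 (-0.22), which act on the actin cytoskeleton, had adjusted p of 0.011 to 0.017 (edgeR). In these lists the values in parentheses are log2 fold changes. The remaining calls were the falls of Dpysl5, Srgap1, Rnd2 and Pak1 and the rises of Farp1, Fes and Rras. The median log2 fold change was -0.07 over the 36 genes and 0.001 over the 61.

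Cell type markers that moved with age are given beside these results, 8 genes per list. Of all genes tested, 6.09% were called higher and 4.89% lower, 11% in all. A single call in a list of 8 is 12.5% and so near this background. Each marker was counted in most mice, and 3 of them (Ccl3, Tbx21 and S100a9) were at 0 in 1 young mouse each. Of the endothelial markers 5 of 8 were higher in old brain, and their summed level was 269.6 to 287.8 CPM in young and 308.7 to 351.7 CPM in old mice. Sema3g and Ephb4, genes known from endothelium, were also higher in old brain. Robo4 and Efnb2, also known from endothelium, were not called (log2 fold changes 0.10 and -0.02, edgeR adjusted p = 0.62 and 0.85). No list of endothelial guidance genes was set beforehand, so the genes named are examples. The receptors Unc5b, Plxnd1 and Nrp1 were not called and lay below 0 (log2 fold changes -0.22, -0.059 and -0.045, edgeR adjusted p = 0.13, 0.76 and 0.73). The part of endothelial RNA in these values was not tested. Of the pericyte and smooth muscle markers 2 were higher, and of the microglia markers 1, with sums of 214.9 to 343.8 CPM in young and 327.0 to 353.3 CPM in old mice. Of the reactive microglia markers 3 were higher. The neuron markers summed to 5936 to 6463 CPM in young and 5803 to 6459 CPM in old mice, and 2 of 8 were lower. None of the astrocyte markers was called. Of the oligodendrocyte markers 2 were higher and 1 lower, and of the markers of their precursors 2 were lower. The meningeal, immature neuron and choroid plexus lists each had 1 lower gene, and the olfactory bulb and cerebellum lists had none. All 8 cerebellum markers nevertheless had log2 fold changes below 0, with a median of -0.30. Their sums were 817.9 to 1062 CPM in the young mice, 573.4 CPM in old replicate 3, 687.9 CPM in old replicate 5 and 936.4 and 941.2 CPM in the others, and their part in the falls of guidance genes was not tested. The blood markers, 3 of which were higher, summed to 87.5 to 117.8 CPM in young and 130.4 to 473.8 CPM in old mice. The olfactory bulb markers were highest in old replicate 5 (210.9 CPM) and young replicate 2 (105.1 CPM), against 29.8 to 82.1 CPM in the other mice. With the mean log2 CPM of the olfactory bulb markers, not their sum, as a covariate, 5 guidance genes were called higher and 14 lower. Of the called genes, Plxna4, Sema3c, Sema4g, Sema6d, Sema7a and Unc5c were then over an adjusted p of 0.05 (edgeR).

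**Figure D4:**
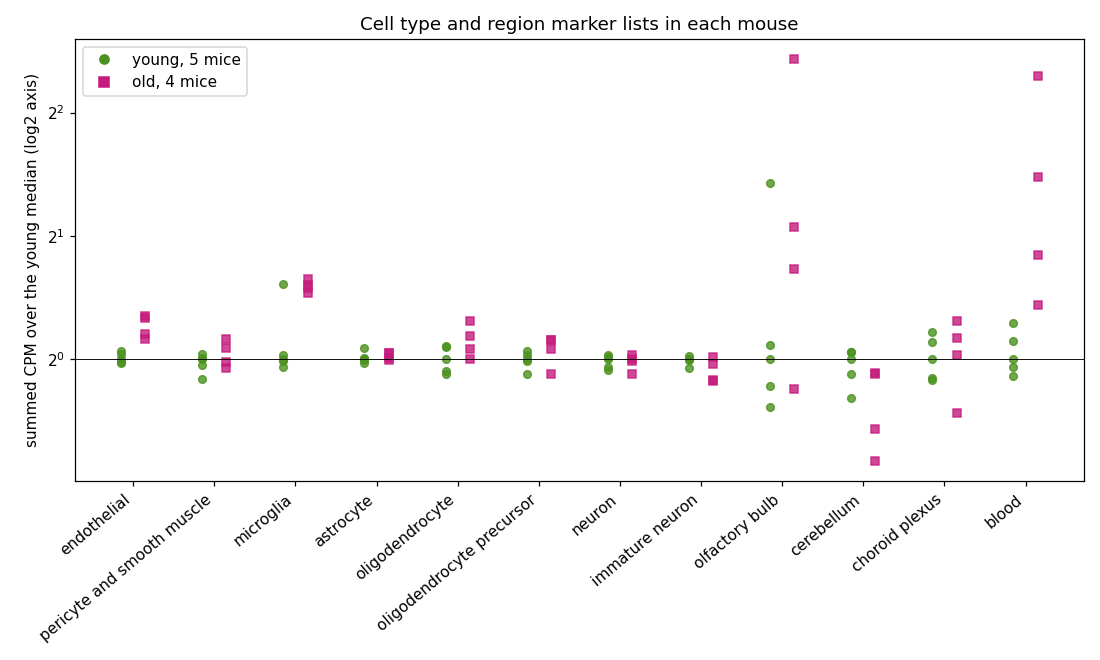
Summed CPM of 12 marker lists in each mouse relative to the median of the young mice (vertical axis, log2 scale), with 5 young mice as circles and 4 old mice as squares. The endothelial and blood lists do not overlap between the ages, and 1 young mouse, replicate 4, lies with the old mice in the microglia list.

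With each mouse left out in turn, 10 of the 23 genes kept an adjusted p under 0.05 in all 9 fits (edgeR). These were Robo3, Slit2, Ephb1, Ephb2, Plxna3, Plxna4, Sema3g, Sema4b, Sema6a and Ntn5. The other 13 passed it in at least 1 of them. Their highest adjusted p came without old replicate 4 for Ephb3 (0.12), Sema6b (0.088), Ephb4 (0.075), Robo1 (0.069) and Sema4a (0.063), and without old replicate 5 for Unc5c (0.15), Sema4g (0.12), Sema7a (0.085) and Ephb6 (0.075). It came without old replicate 1 for Nrp2 (0.089) and Unc5a (0.064), without young replicate 3 for Sema3c (0.070) and without young replicate 5 for Sema6d (0.073). The log2 fold changes of the 23 genes kept their sign in all these fits. Exons of 14 of the 68 genes, 6 of the 23 among them, overlap a gene on the other strand (the 6 include Plxna4 and Unc5c), and counting by strand is described for strand-specific libraries, without saying whether these libraries were.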

How the data were processed

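RNA-seq of whole brain from 5 young and 4 old male C57BL/6J mice was analysed, with 1 brain per library. The age of the young mice is 3 months in the labels and 3 or 4 months in the methods. The authors trimmed reads with Trimmomatic, aligned them to GRCm38 with STAR and counted uniquely mapped reads on exons with featureCounts. They deposited raw counts per gene, normalized counts (a signal, counts divided by a size factor per library, for which the labels name DESeq2) and TPM values, whose gene lengths are not given in the sources used here. Each table held 1 further column that matched no sample used here and was left out.

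Genes were kept with filterByExpr (minimum count 10, minimum total 15), which left 18492, and the ages were compared after TMM by the quasi-likelihood test of edgeR (robust), with Benjamini-Hochberg adjustment over all of them and a threshold of 0.05. Each library was taken as a replicate, as the methods describe individual brains. Libraries of one age differed by more than counting noise (chi-square per degree of freedom at least 4.04), so none was counted as a copy of another. Exact permutations over 126 splits cannot give a p below 0.00794. The test was tried on simulated counts of the same design over 18492 genes, with a log2 fold change of 1 given to 200, and recovered 82% of these, while 7.87% of the genes it called had been left as they were. This false share lies above the threshold of 0.05. All called guidance genes changed by less than 1 on the log2 scale, and recovery at such sizes was not simulated. Log2 CPM used a prior count of 2. Positions and exon lengths came from GENCODE M21. Software used was edgeR 4.0.16, limma 3.58.1 and DESeq2 1.42.0 under R 4.3.3.

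The alternatives were DESeq2's Wald test, other size factors, other filters, limma on log2(TPM + 1) and on the log2 of the normalized counts, the replicate number as a block, the olfactory bulb markers as a covariate, other thresholds and each mouse left out. TPM with each library centred on its median was added after seeing the data. The members and lists were chosen with earlier results of these data known. Named with values are all called members, the highest and lowest gene per length of each family, members past a log2 fold change of 0.58 or with too few counts, and up to 6 called genes of each other list by lowest p. Other members are named to complete a family or pair, chosen after their values were seen.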

Additional observations from a re-analysis of the deposited data

Results flagged for a closer look

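For each of the 67 genes and each age, the highest and lowest mouse were set against the rest by the gap to the nearest mouse as a share of the whole range. Of these 134 sets of values, 5 held a mouse that stood apart, a number that chance alone would bring to about 6.7, and none of them was of a called gene. In log2 CPM, Sema3b was at 2.44 in young replicate 4, against 2.92 to 3.06 in the other young mice. Slit1 in the same mouse was at 6.47, against 6.34 to 6.37. In old replicate 3, Sema4c was at 3.95, against 4.20 to 4.23 in the other old mice, and Plxnb2 at 6.63, against 6.76 to 6.78. Robo4 was at 2.65 in old replicate 5, against 3.14 to 3.18.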

How the results depend on the processing

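The 6 guidance genes called higher and 17 lower became 6 and 16 with DESeq2's Wald test, 7 and 23 without a filter on low counts and 6 and 18 on the normalized counts. On log2(TPM + 1) the median of all genes moved by -0.14 and they became 0 and 1, so that 0% of the calls were higher instead of 26.1%. With TPM libraries centred on their median, an alternative chosen after seeing the data, 3 were called higher (16.7% of the calls) and 15 lower, and 17 of the 23 genes kept their call. With an absolute log2 fold change over 0.58 as well, 0 were higher and 1, Robo3, lower, and neither of the other lists held a call (0 of 36 and 0 of 61). The other guidance genes called, 10 in all, became 0 on TPM, and the downstream genes, 13 in all, became 1 on TPM and 8 with the olfactory bulb covariate. The cause was not tested. With each mouse left out, the guidance genes called higher numbered 4 to 7 and those called lower 9 to 16, the latter 9 without old replicate 4, 10 without young replicate 1 and 11 without young replicate 5 or old replicate 5. The other guidance genes numbered 6 to 9, 6 without old replicate 1 or old replicate 4, and the downstream genes 8 to 13, 8 without old replicate 5.

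With the replicate number as a block, 6 guidance genes were called higher and 14 lower, and 20 of the 23 kept their call. The deviations of young and old samples of the same number from their group means correlated at 0.17, -0.12, 0.088 and -0.024 for numbers 1, 3, 4 and 5. Samples of unlike number were not compared, so these values cannot show whether a number stands for anything shared.

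Among 646 values of single genes under the alternatives, 535 kept their side of the threshold, 97 lost a call, 6 gained one and 8 changed sign. The values came from 34 genes with 19 alternatives each, the 23 called genes and further uncalled ones. All 97 losses were of called genes, as only these could lose a call, so the 535 include uncalled genes that stayed uncalled. The 8 changes of sign were all of uncalled genes. On TPM, the log2 fold change was -0.051 for Efnb3, -0.087 for Slit1 and -0.063 for Robo4. With a mouse left out, that of Nrp1 ran from -0.097 (without old replicate 5) to 0.014 (without young replicate 4), that of Ntn1 from -0.15 (without old replicate 4) to 0.0053 (without young replicate 3), and that of Robo2 from -0.085 (without old replicate 3) to 0.012 (without old replicate 1), with 0.0038 without old replicate 4. With the olfactory bulb covariate, that of Ntn1 was 0.0054. With a median standard error of 0.064 on the log2 scale, changes well under the sizes called cannot be told from 0 at this number of mice.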
